A study of Mus musculus with 47 samples.

Results

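The mammalian circadian clock was followed through 10 of its genes in the brainstem and hippocampus of mice that carried a human mutant alpha-synuclein transgene or not and that were fed a standard or a high-fat diet. The genes were Arntl (also called Bmal1), Clock, Per1, Per2, Per3, Cry1, Ciart, Nr1d1, Nr1d2 and Dbp, taken from both count tables by their Ensembl identifiers. All 10 were found in each table, among 33139 genes listed for brainstem and 31751 for hippocampus (35032 in the tables together), and all 10 passed the filter on low counts, which asked for 50 counts per library on average within a region. RNA sequencing counted messenger RNA in whole tissue from male mice of C57BL/6 background. Wild-type mice on the standard diet (WT_SD) and on the high-fat diet (WT_HFD) belonged to a colony of their own, which shared its founding cross with the transgenic line. Transgenic mice on the standard diet (TG_SD) and on the high-fat diet (TG_HFD) were homozygous for human alpha-synuclein with the A30P mutation, driven by the neuronal Thy1 promoter. Both diets ran from weaning until about a year of age, with mice kept under alternating light and dark, and the same 4 groups were measured in the brainstem, dissected as the medulla, and in the entire hippocampus. Each group had 6 libraries per region except brainstem WT_SD with 5, from 6 animals per group by the study's methods, and p-values refer to the spread between these libraries. The hour at which each mouse was killed was not given in the sources used here.

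The clock of a single cell is a loop of transcription and translation. ARNTL and CLOCK bind together to E-box sequences and switch on their own repressors, the PER and CRY proteins, which build up, block ARNTL and CLOCK and are then degraded, so that the messages rise and fall over a day. REV-ERB alpha and beta, encoded by Nr1d1 and Nr1d2, form another arm that represses Arntl, while DBP carries the rhythm on to output genes through D-box sequences, and most brain regions keep such a rhythm in the light and dark cycle. In mice, Arntl peaks at the opposite phase to Dbp, Nr1d1 and the Per genes, so the level of each message depends on the hour of sampling.

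Total counts ran from 10020784 to 15078812 per library in the 23 brainstem libraries and from 11945971 to 17328447 in the 24 hippocampus libraries. The human transgene separated the genotypes in every library, with 3620 to 5044 CPM (counts scaled to a common library size) in TG brainstem against at most 3.69 in WT, and 3957 to 4801 in TG hippocampus against at most 3.03 in WT. The defining markers of the tissues held: Slc6a5, the glycine transporter of inhibitory brainstem neurons, was at 253 to 474 CPM in brainstem and at most 0.505 CPM in hippocampus, while Neurod6, a transcription factor of hippocampal pyramidal cells, was at 180 to 252 CPM in hippocampus and 3.11 to 6.15 CPM in brainstem. One library stood apart in both regions, WT_SD library 6, and results that rest on it are given with and without it. The clock genes were counted deeply enough for single-library values: median counts per library ran from 128 (Arntl) to 2041 (Nr1d2) in brainstem and from 116.5 (Ciart) to 1244 (Nr1d2) in hippocampus. In whole tissue, fewer cells of a type and less RNA per cell cannot be told apart. For Dbp and Nr1d1 another limit applies, because the library kit is not stated to mark strand. Dbp shares 539 exonic bases (18.0% of its length) with Sphk2 on the opposite strand, and Nr1d1 shares 263 (8.55%) with Thra, the thyroid hormone receptor alpha gene, so reads from these stretches cannot be assigned to one partner. Library deviations of Dbp and Sphk2 correlated at r = 0.53 in brainstem (n = 23 libraries) and 0.33 in hippocampus (n = 24), and those of Nr1d1 and Thra at 0.62 and 0.56; how much of this came from shared reads was not tested.

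The loop acts through short promoter elements, and some promoters of the clock genes held a match to one. RefSeq promoters of GRCm38.p6, the 250 bases before a gene's start, were searched on both strands for the E-box CACGTG, its variant the E-prime box CACGTT, the core AGGTCA of the element bound by ROR and REV-ERB proteins, and the D-box core TTATGTAA. Entries were found for 9 of the 10 genes. Of 32851 mouse promoters, 6.02% held the E-box, 3.85% the E-prime box, 14.0% the ROR core and 0.819% the D-box core. The 4 promoters of Ciart, Cry1, Per1 and Per3 are printed because each held at least 2 matches, with matches to any of the 4 elements, in either orientation, in capitals. The first is that of Ciart (chr3:95882229-95882478, minus strand) with 3 E-boxes, the next that of Cry1 (chr10:85185055-85185304, minus strand) with 1 E-box and 1 E-prime box, then Per1 at its first listed start (chr11:69098699-69098948, plus strand) with 1 E-box and 1 ROR core, and last Per3 (chr4:151044666-151044915, minus strand) with 2 D-box cores.
Ciart: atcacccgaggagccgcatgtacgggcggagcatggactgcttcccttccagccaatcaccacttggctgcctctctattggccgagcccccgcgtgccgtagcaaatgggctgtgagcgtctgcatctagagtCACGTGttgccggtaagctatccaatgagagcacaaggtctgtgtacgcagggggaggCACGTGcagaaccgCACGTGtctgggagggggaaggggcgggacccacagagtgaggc
Cry1: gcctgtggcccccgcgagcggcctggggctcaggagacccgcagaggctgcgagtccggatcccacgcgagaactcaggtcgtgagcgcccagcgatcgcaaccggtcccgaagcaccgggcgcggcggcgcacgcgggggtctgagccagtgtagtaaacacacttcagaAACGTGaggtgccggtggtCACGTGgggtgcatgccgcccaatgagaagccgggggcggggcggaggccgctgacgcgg
Per1: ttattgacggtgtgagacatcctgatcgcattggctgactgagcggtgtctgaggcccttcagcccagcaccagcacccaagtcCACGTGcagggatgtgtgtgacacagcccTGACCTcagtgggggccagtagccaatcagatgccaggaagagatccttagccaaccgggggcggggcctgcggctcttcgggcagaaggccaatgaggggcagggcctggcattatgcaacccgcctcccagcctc
Per3: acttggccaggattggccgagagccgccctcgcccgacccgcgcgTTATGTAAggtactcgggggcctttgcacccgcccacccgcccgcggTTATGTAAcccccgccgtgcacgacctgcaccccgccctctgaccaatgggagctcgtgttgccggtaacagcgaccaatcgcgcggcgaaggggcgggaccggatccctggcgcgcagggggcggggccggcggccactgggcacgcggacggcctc
Nr1d1 held 1 E-prime box, Nr1d2 and 1 of 3 starts of Clock held 1 ROR core each, and no match lay in the windows of Dbp, Arntl or the other start of Per1. A match describes only the letters of this window.

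The regions were compared first, because each gene's level sets how precisely its groups can be compared. Levels per length (RPKM, reads scaled to exon length and library size within each region's table) put the REV-ERB genes at the top of both regions. In brainstem, Nr1d2 had a mean of 30.9 RPKM ± 3.32 (SD, n = 23 libraries) and Nr1d1 14.5 ± 2.38, and their ranges overlapped neither each other nor the range of Dbp, next at 5.74 ± 0.672. Clock (5.68), Ciart (4.87), Per1 (3.89), Cry1 (3.84), Per3 (2.44), Per2 (2.07) and Arntl (1.41) followed in that order of mean RPKM, and each neighbouring pair from Dbp down to Arntl overlapped in range, so that part of the order was within the spread between libraries. In hippocampus, Nr1d1 led with 22.7 RPKM ± 1.97 (SD, n = 24 libraries), followed by Nr1d2 with 16.2 ± 1.55, and these 2 ranges overlapped. Per1 (8.76), Clock (6.03), Dbp (5.54), Per2 (3.99), Ciart (3.72), Arntl (3.37), Cry1 (3.04) and Per3 (2.35) came next. The range of Per1 lay below that of Nr1d2, and each further neighbouring pair overlapped.

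**Figure D1:**
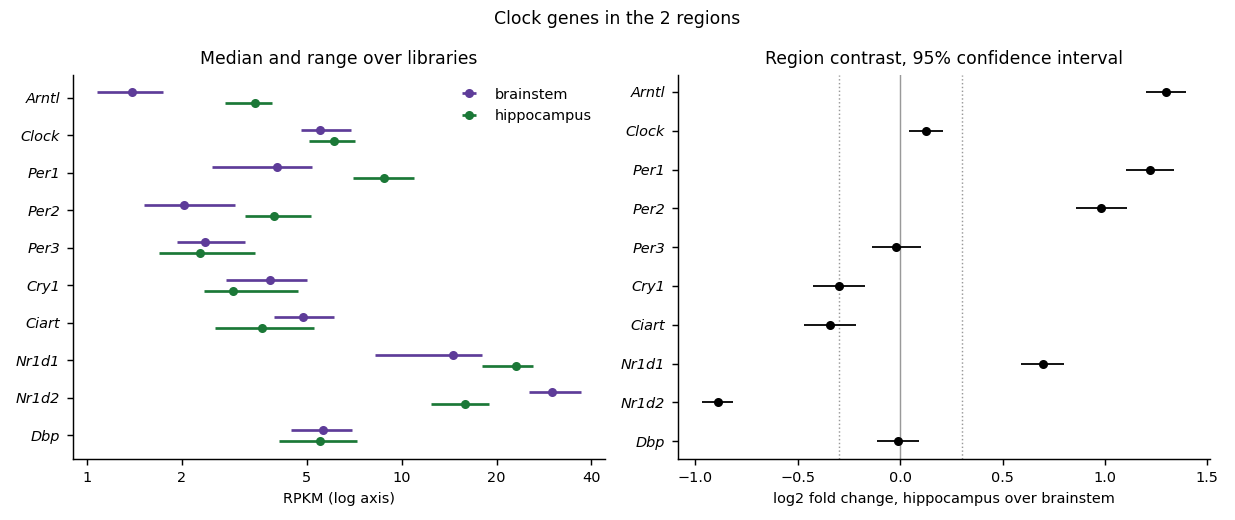
Left, levels of the 10 clock genes in RPKM on a log axis, with points at the median and lines over the full range of the 23 brainstem and 24 hippocampus libraries. Right, the log2 fold change of hippocampus over brainstem with its 95% confidence interval from edgeR, dotted lines marking the fold threshold of 0.3. Arntl, Per1, Per2 and Nr1d1 lie to the right, Nr1d2 far to the left, and Per3 and Dbp on 0.

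Between regions, 6 of the 10 clock genes passed the test, 4 higher and 2 lower in hippocampus. To be called, a gene needed an adjusted p of at most 0.05 (edgeR's quasi-likelihood test, Benjamini-Hochberg over all tested genes) and a fold change of 0.3 or more on the log2 scale in either direction. By this rule 60.2% of the 13458 genes tested were called, 29.2% higher and 31% lower in hippocampus, so the share of clock genes called was that of genes at large. Arntl, which encodes the activator, was higher in hippocampus by 1.30 on the log2 scale (SE 0.05, adjusted p = 3.7e-29). Its dimer partner Clock differed by 0.13 (SE 0.04, adjusted p = 0.0039), short of the fold threshold. Among the repressors, Per1 (log2 fold change 1.22, SE 0.06) and Per2 (0.98, SE 0.06) were higher in hippocampus and Ciart, a repressor of ARNTL and CLOCK, was lower (-0.34, SE 0.06, adjusted p = 3.2e-06), while Per3 had a log2 fold change of -0.02 (95% confidence interval -0.14 to 0.10). Cry1, at -0.30 (SE 0.06, adjusted p = 3.2e-05), lay just under the fold threshold and was called in 19 of the 47 fits that each left out 1 library. The REV-ERB genes went opposite ways: Nr1d1 was higher in hippocampus by 0.70 (SE 0.05) and Nr1d2 lower by -0.89 (SE 0.04) on the log2 scale. Thra, which overlaps Nr1d1 on the opposite strand, had median counts of 2629 in brainstem and 10619 in hippocampus, beside 566 and 985 for Nr1d1. The part of shared reads in the level of Nr1d1 and in its region difference was not tested. Dbp, the output factor, had a log2 fold change of -0.01 (95% confidence interval -0.11 to 0.09). Dbp has the highest GC content of the 10 genes (61.6%), and with an offset for GC content its log2 fold change became -0.47, called as lower in hippocampus. Levels of single libraries did not overlap between regions for Per1, Per2, Nr1d1, Nr1d2 and Arntl, 5 of the 10 genes, against 33.6% of the 12619 genes tested in both regions. For Nr1d1 the ranges almost touched, with at most 18.03 RPKM in brainstem and at least 18.04 in hippocampus. Because these levels were scaled within each region, that gap cannot be told from a tie.

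Genotype and diet were then compared within each region, and no clock gene passed the test in any of the 10 contrasts. The contrasts were TG_SD/WT_SD, TG_HFD/WT_HFD, WT_HFD/WT_SD, TG_HFD/TG_SD and the interaction of genotype and diet. They were fitted in edgeR with surrogate variables (estimated hidden factors), which the study also used, but in DESeq2. Calls among all genes were few as well in this fit. With its own model and the same thresholds, the study reported far more genes in each region, most of them under the high-fat diet. In brainstem, 0.142% of 13340 genes were called in TG_SD/WT_SD, 0.0525% in TG_HFD/WT_HFD, 0% in WT_HFD/WT_SD, 0.0075% in TG_HFD/TG_SD and 0.0075% for the interaction. In hippocampus the shares of 13272 genes were 0.098%, 0.226%, 0%, 0% and 0%. The second of these depended on the model: its 30 genes became 515 without surrogate variables, 634 with 2 of them and 550 by DESeq2 without them, and 0 clock genes were called in that contrast in any of these fits. Where edgeR called 0 genes, 724 had an unadjusted p of at most 0.05 in brainstem WT_HFD/WT_SD, and 851, 940 and 794 in hippocampus WT_HFD/WT_SD, TG_HFD/TG_SD and the interaction. In these contrasts DESeq2, which was fitted without surrogate variables, called 0, 17, 1 and 1. At an unadjusted p of at most 0.05, edgeR passed 2 of the 40 clock gene values over the 4 pairwise contrasts in brainstem and 1 of 40 in hippocampus, with 1 and 0 of the 10 interaction values. Over all genes, 5.43% to 10.5% passed per pairwise contrast in brainstem and 6.41% to 11.3% in hippocampus, with 4.83% and 5.98% for the interaction. DESeq2 without surrogate variables called 0 clock genes in every contrast. The precision was such that 39 of the 40 brainstem and 37 of the 40 hippocampus 95% confidence intervals lay within a log2 fold change of 0.5 in either direction. Ranges of single libraries overlapped for all 10 genes in all 8 pairwise comparisons; 0.532%, 0.682%, 0.427% and 0.172% of all genes did not overlap in brainstem, and 0.264%, 4.15%, 0.467% and 0.0226% in hippocampus, in the order given above.

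**Figure D2:**
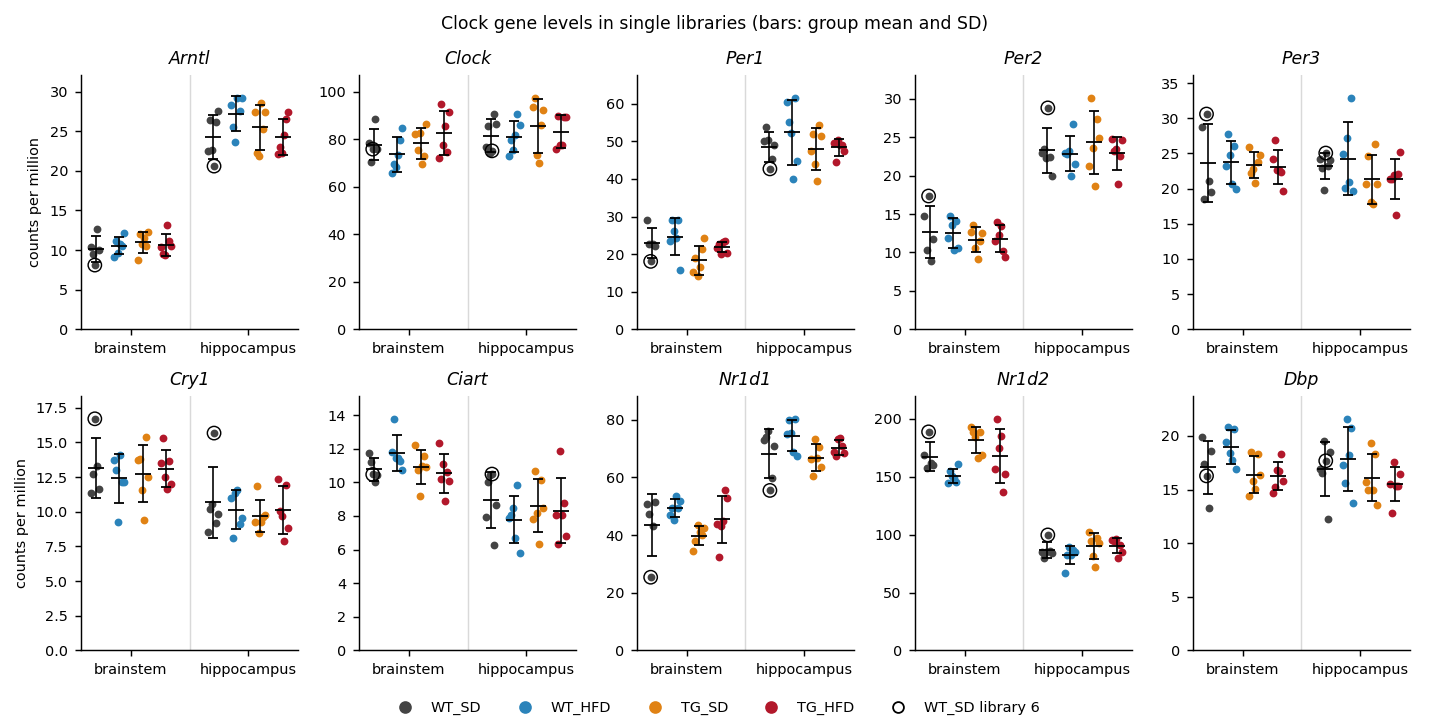
CPM (linear axis from 0) of each clock gene in every library, by region and group, with the group mean and SD as bars. Groups that share genotype or diet overlap within a region for every gene, while TG_SD and WT_HFD lie apart for Nr1d1 and Nr1d2 in brainstem. That pair of groups was not planned, and the share of all genes that it separates was not computed. The ringed WT_SD library 6 sits at the edge of its group for Nr1d1, Per2 and Cry1.

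Of the activators, Arntl was close to even across brainstem groups. Its 5 WT_SD libraries were at 10.4, 9.46, 8.10, 12.6 and 10.0 CPM, and the lowest, median and highest values were 9.15, 10.6 and 12.2 CPM in WT_HFD, 8.76, 11.1 and 12.2 in TG_SD and 9.32, 10.5 and 13.1 in TG_HFD. In hippocampus they were 20.6, 24.4 and 27.6 CPM in WT_SD, 23.6, 27.9 and 29.2 in WT_HFD, 21.8, 26.4 and 28.5 in TG_SD and 22.1, 23.8 and 27.4 in TG_HFD. WT_HFD libraries reached highest in hippocampus, but the log2 fold change over WT_SD was 0.13 (SE 0.08, adjusted p = 0.87), and the interaction was -0.19 (SE 0.11, adjusted p = 0.87). Clock, which encodes the DNA-binding partner of ARNTL, had narrow intervals throughout. It spanned 65.7 to 94.7 CPM over all brainstem and 69.9 to 97.4 CPM over all hippocampus libraries. The 95% confidence intervals of its 8 pairwise log2 fold changes all fell between -0.12 and 0.14. This precision rested on the surrogate variables, which took up a fraction of 0.67 of the variance of Clock in brainstem and 0.87 in hippocampus. Without them the intervals ran from -0.24 to 0.33, and the log2 fold change of Clock for TG_HFD/WT_HFD in brainstem was 0.17 (unadjusted p = 0.037, adjusted p = 0.23) instead of 0.01.

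Among the repressors, Per1 gave the smallest p-values in brainstem. Its WT_SD libraries were at 29.1, 22.6, 18.1, 22.6 and 22.2 CPM, and the lowest, median and highest values were 15.7, 25.2 and 29.2 CPM in WT_HFD, 14.1, 17.7 and 24.2 in TG_SD and 20.1, 22.2 and 23.4 in TG_HFD. TG_SD thus held the lowest median and TG_HFD the narrowest range, with overlap between all groups. The log2 fold change was -0.26 (SE 0.11, adjusted p = 0.38) for TG_SD/WT_SD, 0.31 (SE 0.11, adjusted p = 0.57) for TG_HFD/TG_SD and 0.37 (SE 0.17, adjusted p = 0.99) for the interaction, and none passed. The interaction of Per1 became 0.08 without WT_HFD library 8 and 0.14 (adjusted p = 0.86) without surrogate variables. In hippocampus, Per1 had medians of 49.5, 53.7, 49.5 and 49.2 CPM in WT_SD, WT_HFD, TG_SD and TG_HFD, and its log2 fold change for TG_SD/WT_SD was 0.06 (SE 0.07). The contrast did not differ between regions beyond its error either (log2 difference 0.29, 95% confidence interval -0.04 to 0.63, adjusted p = 1), and for none of the 10 genes did any contrast pass this test of the regions against each other.

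Per2, a repressor that also responds to hormones and light, had brainstem WT_SD values of 14.7, 10.4, 17.3, 8.92 and 11.8 CPM. Its lowest, median and highest values were 10.3, 12.7 and 14.7 CPM in WT_HFD, 9.17, 12.02 and 13.6 in TG_SD and 9.39, 11.8 and 14.0 in TG_HFD. The 5 WT_SD libraries spanned more than any of the other groups and covered them entirely. In hippocampus the corresponding values were 19.98, 22.6 and 28.8 CPM in WT_SD, 19.9, 22.9 and 26.8 in WT_HFD, 18.7, 24.2 and 30.1 in TG_SD and 18.9, 23.3 and 24.7 in TG_HFD. Log2 fold changes of Per2 for TG_SD/WT_SD were -0.20 (SE 0.12, adjusted p = 0.59) in brainstem and 0.01 (SE 0.09, adjusted p = 0.98) in hippocampus. Without WT_SD library 6 the brainstem value became -0.09 (adjusted p = 0.90), and 0.04 without surrogate variables as well, and the hippocampus value became 0.27 (adjusted p = 0.48). The brainstem value was also -0.12 without WT_SD library 1 and -0.33 without WT_SD library 7.

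Per3, which encodes the PER protein least needed for the rhythm itself, had brainstem WT_SD values of 28.7, 18.6, 30.6, 21.1 and 19.5 CPM, in the same order of libraries as those given for Per2. The lowest, median and highest brainstem values were 19.9, 24.0 and 27.7 CPM in WT_HFD, 20.9, 23.3 and 25.9 in TG_SD and 19.6, 22.6 and 26.9 in TG_HFD. In hippocampus the values were 19.7, 23.7 and 25.1 CPM in WT_SD, 19.6, 22.9 and 32.9 in WT_HFD, 17.8, 20.7 and 26.3 in TG_SD and 16.3, 21.6 and 25.2 in TG_HFD. The groups overlapped throughout, and the 8 pairwise log2 fold changes of Per3 ranged from -0.15 to 0.11 with adjusted p-values of at least 0.66. The direction of TG_SD/WT_SD rested on WT_SD library 6, since without it the log2 fold change went from -0.08 to 0.05 in brainstem and from -0.15 to 0.07 in hippocampus.

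Cry1, which encodes a strong repressor of ARNTL and CLOCK, had brainstem WT_SD values of 11.3, 12.7, 16.7, 13.3 and 11.6 CPM and medians of 12.6, 13.1 and 13.0 CPM in WT_HFD, TG_SD and TG_HFD. In hippocampus its lowest, median and highest values were 8.56, 10.0 and 15.7 CPM in WT_SD, 8.13, 10.3 and 11.6 in WT_HFD, 8.49, 9.46 and 11.9 in TG_SD and 7.87, 9.88 and 12.3 in TG_HFD. A single WT_SD library, number 6, set the highest value there. The log2 fold change for TG_SD/WT_SD in hippocampus was -0.27 (SE 0.11, adjusted p = 0.45) and became -0.06 (adjusted p = 0.96) without that library. Ciart had the widest intervals in hippocampus, where its counts were the lowest. The lowest, median and highest values there were 6.28, 9.34 and 10.5 CPM in WT_SD, 5.79, 7.95 and 9.82 in WT_HFD, 6.33, 8.31 and 10.7 in TG_SD and 6.33, 8.06 and 11.9 in TG_HFD. Its log2 fold change for WT_HFD/WT_SD was -0.29 with a 95% confidence interval of -0.65 to 0.07 (adjusted p = 0.86), so a change of that size was not detectable at this spread.

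The REV-ERB genes and Dbp completed the loop. Nr1d1 was at 50.8, 47.4, 25.4, 43.1 and 51.5 CPM in brainstem WT_SD, the third of these being library 6. Lowest, median and highest values were 45.3, 49.3 and 53.5 CPM in WT_HFD, 34.4, 40.4 and 43.5 in TG_SD and 32.4, 44.3 and 55.5 in TG_HFD. TG_SD libraries lay low and WT_HFD libraries high, and both sat inside the range of WT_SD apart from the top of WT_HFD. The low end of WT_SD was library 6 alone. The other 4 libraries spanned 43.1 to 51.5 CPM, and 5 of the 6 TG_SD libraries lay below them. The log2 fold change of Nr1d1 for TG_SD/WT_SD went from 0.06 (adjusted p = 0.83) to -0.09 (adjusted p = 0.71) without library 6, and from -0.13 (adjusted p = 0.85) to -0.28 (adjusted p = 0.20) in the fits without surrogate variables. In hippocampus Nr1d1 had lowest, median and highest values of 55.5, 72.1 and 75.9 CPM in WT_SD, 67.6, 75.2 and 80.3 in WT_HFD, 60.4, 66.5 and 73.3 in TG_SD and 67.3, 69.9 and 73.6 in TG_HFD. The largest of its 4 log2 fold changes there was 0.13 (SE 0.06, adjusted p = 0.46) for TG_HFD/WT_HFD, although the mean CPM of TG_HFD (70.4) was below that of WT_HFD (74.5). Without surrogate variables the value was -0.08 (adjusted p = 0.51), so its sign depended on them; they took up a fraction of 0.60 of the variance of Nr1d1 in hippocampus and 0.76 in brainstem.

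Nr1d2 had brainstem WT_SD values of 168, 157, 189, 162 and 161 CPM. Its lowest, median and highest values were 144.5, 149.9 and 160.7 CPM in WT_HFD, 166.3, 186.6 and 192.9 in TG_SD and 136.8, 165.8 and 200.2 in TG_HFD. The 6 TG_SD libraries were all above the 6 WT_HFD libraries, 2 groups that differ in both genotype and diet and were not contrasted. Nr1d1 in brainstem separated the same groups the other way, at most 43.5 CPM in TG_SD and at least 45.3 in WT_HFD. This pair of groups was seen in the values and not planned, and the share of all genes that it separates was not computed. The log2 fold changes of Nr1d2 stayed between -0.08 and 0.05 in brainstem and between -0.02 and 0.00 in hippocampus. Without surrogate variables, which took up fractions of 0.62 and 0.51 of its variance, they ran from -0.15 to 0.15 and from -0.08 to 0.14, with adjusted p-values of at least 0.24. Dbp in brainstem had WT_SD values of 19.9, 17.3, 16.3, 13.3 and 18.6 CPM, and lowest, median and highest values of 16.9, 19.0 and 20.8 CPM in WT_HFD, 14.4, 16.1 and 18.5 in TG_SD and 14.7, 16.3 and 18.3 in TG_HFD. In hippocampus they were 12.2, 17.3 and 19.5 CPM in WT_SD, 13.7, 17.7 and 21.6 in WT_HFD, 13.5, 15.3 and 19.3 in TG_SD and 12.9, 15.4 and 17.6 in TG_HFD. WT_HFD had the highest median of Dbp in each region. The log2 fold change for TG_HFD/WT_HFD in brainstem was -0.07 (SE 0.11, adjusted p = 0.98), and -0.22 (adjusted p = 0.18) in the fit without surrogate variables.

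**Figure D3:**
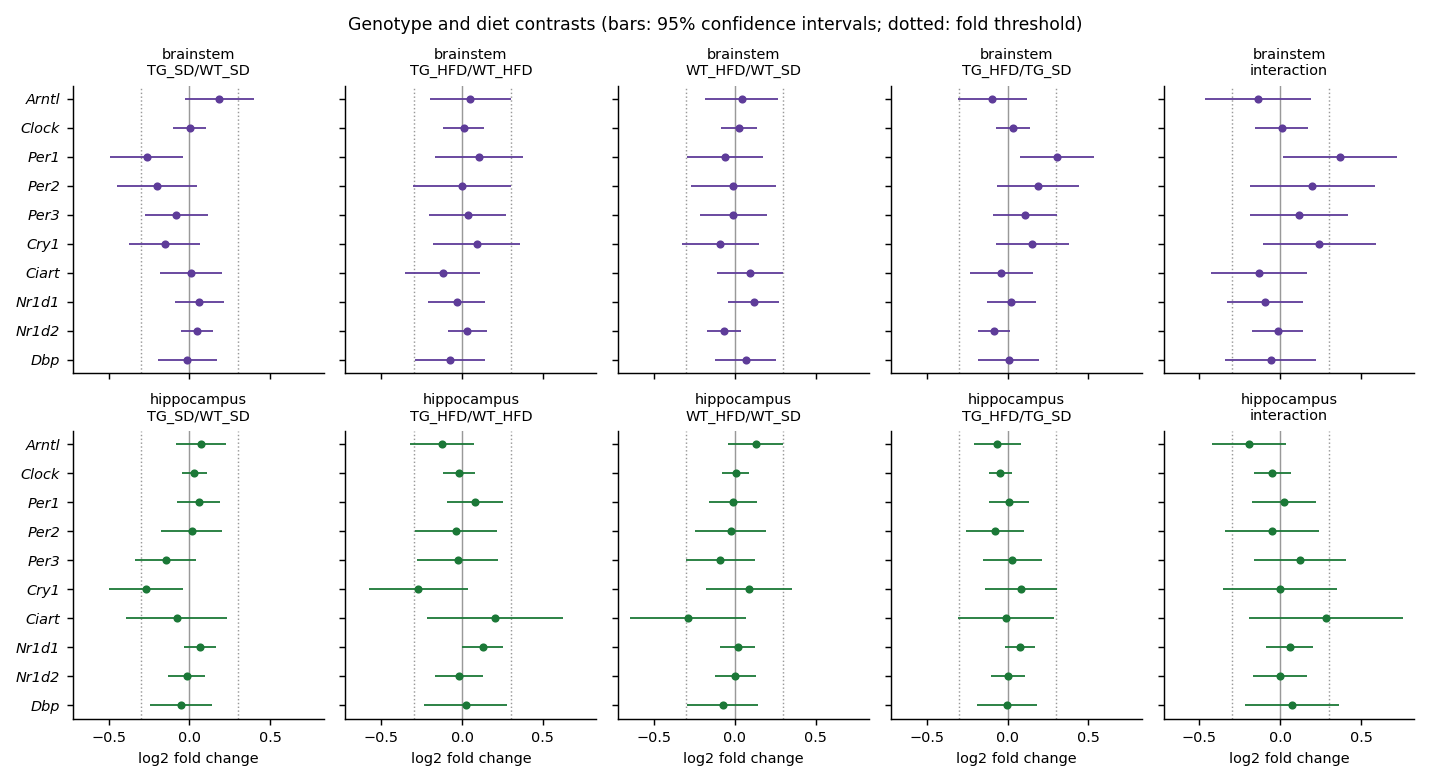
Log2 fold changes of the 10 clock genes with 95% confidence intervals (edgeR, 4 surrogate variables) in the 4 pairwise contrasts and the interaction, brainstem above and hippocampus below, dotted lines at the fold threshold of 0.3. Most points lie within 0.2 of 0, and the intervals that clear 0 are those of Per1 in 3 brainstem panels and Cry1 in hippocampus TG_SD/WT_SD.

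Other genes of the clock and its outputs gave no calls between groups either. Of 16 further genes (Npas2, Cry2, Arntl2, the ROR genes Rora and Rorb, Tef, Hlf, Nfil3, Bhlhe40, Bhlhe41, the casein kinases Csnk1d and Csnk1e, Fbxl21, Timeless, Tipin and Usp2), 15 were tested in each region, and 0 were called in any of the 10 group contrasts by edgeR. At an unadjusted p of at most 0.05, between 0 and 3 of the 15 passed per contrast, against 4.83% to 11.3% of all genes. Between regions 11 of 15 were called, 7 higher and 4 lower in hippocampus, where 60.2% of all genes were called. Npas2, which can stand in for Clock, was higher in hippocampus by a log2 fold change of 2.41 (SE 0.05), Usp2, a deubiquitinase of clock proteins, by 1.53 (SE 0.05) and Cry2, the other cryptochrome, by 0.96 (SE 0.03). Rora, an activator that competes with the REV-ERB proteins at the ROR element, was lower by -0.999 (SE 0.05) and Fbxl21, a ubiquitin ligase subunit that binds cryptochromes, by -0.92 (SE 0.07).

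The spread between single libraries of a group was larger than counting error for nearly all clock genes, as for genes at large, whose median was 1.87 times the counting SD in brainstem and 1.68 times in hippocampus. The within-group SD of log2 CPM in brainstem was 0.26 for Per2, 0.26 for Per1, 0.25 for Nr1d1, 0.21 for Cry1 and 0.20 for Per3, against 0.16 for the median tested gene. Arntl lay just above that median (0.18), and Dbp (0.15), Clock (0.14), Ciart (0.13) and Nr1d2 (0.13) lay below it. Nr1d1 and Nr1d2 varied by 4.02 and 3.96 times their counting SD, whereas Ciart, at 1.05 times, stayed close to it. In hippocampus Ciart varied most (SD 0.28, above 96.6% of tested genes and 2.10 times its counting SD), followed by Cry1 (0.23), Per3 (0.22) and Dbp (0.21), against 0.14 for the median gene. Nr1d1 was at 0.12 there.

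Among the clock genes, Per2 and Per3 varied together most. Deviations of log2 CPM from the group mean were correlated for the 45 pairs in each region. An absolute r of 0.5 or more was reached by 17.8% of these pairs in brainstem and 22.2% in hippocampus, against 17.1% and 11.2% of the pairs of all tested genes, so the brainstem share was near that of genes at large. With an offset for GC content the shares were 26.7% and 22.2%, against 13.6% and 9.63%. Per2 and Per3 correlated with r = 0.83 in brainstem (rho = 0.82, permutation p = 9e-05 for r and 0.00013 for rho, n = 23) and r = 0.71 in hippocampus (rho = 0.74, permutation p = 0.00015 and 9e-05, n = 24). Without the 2 libraries farthest from the median of Per2, r was 0.77 and 0.63, and without WT_SD library 6 it was 0.78 and 0.74. Of the 45 pairs, 10 in brainstem and 14 in hippocampus had a permutation p of at most 0.05, unadjusted (18 in each region with the GC offset). The share of all gene pairs with such a p was not computed, so these counts have no background to be read against. In sign, 21 of the 45 pairs were positive in both regions, 14 negative in both and 10 opposite.

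**Figure D4:**
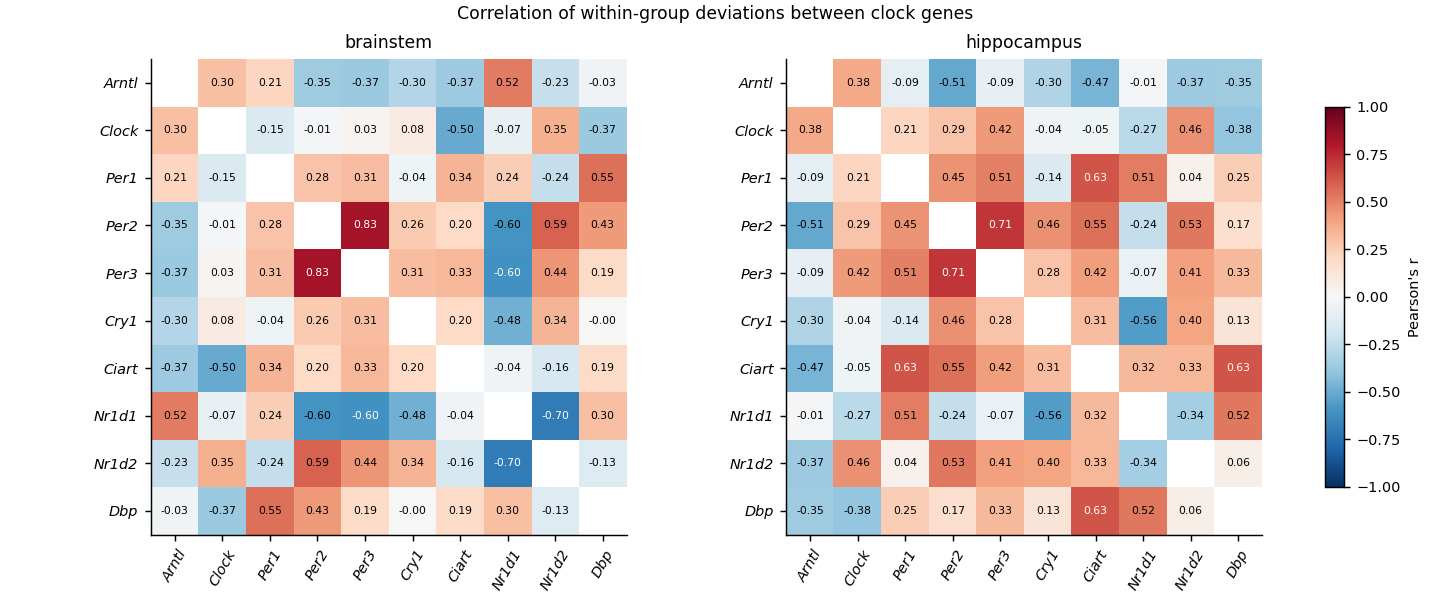
Pearson's r between the 10 clock genes over deviations from the group mean of log2 CPM, in 23 brainstem libraries (left) and 24 hippocampus libraries (right), red for positive and blue for negative values. Per2 with Per3 is the darkest red square in each region, and Nr1d1 with Nr1d2 the darkest blue one in brainstem.

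A fit over all genes gave the same pair with less certainty. In edgeR, with the 4 groups in the model, the slope of each gene on the log2 CPM of Per3 was called for 1 of 13339 brainstem genes (0.0075%), and that gene was Per2 (slope 1.06, SE 0.18, adjusted p = 0.038). It was called in 4 of the 23 fits that each left out 1 library, with slopes of 0.99 to 1.16 and adjusted p-values of 0.011 to 0.65, the last without WT_SD library 6. The slope of Per3 on Per2 in brainstem was 0.66 (SE 0.11, adjusted p = 0.021), where 0.0375% of genes were called; it was called in 17 of 23 such fits and had an adjusted p of 0.355 without WT_SD library 6. In hippocampus the slope of Per2 on Per3 was 0.59 (SE 0.13, adjusted p = 0.0501, called in 6 of 24 fits with 1 library left out) and that of Per3 on Per2 was 0.88 (SE 0.19, adjusted p = 0.40), with 0% of 13271 genes called on either by edgeR. The unadjusted counts of all genes were 1834 for the slope on Per3 and 726 for that on Per2. The slope estimates thus varied little while the call turned on single libraries.

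**Figure D5:**
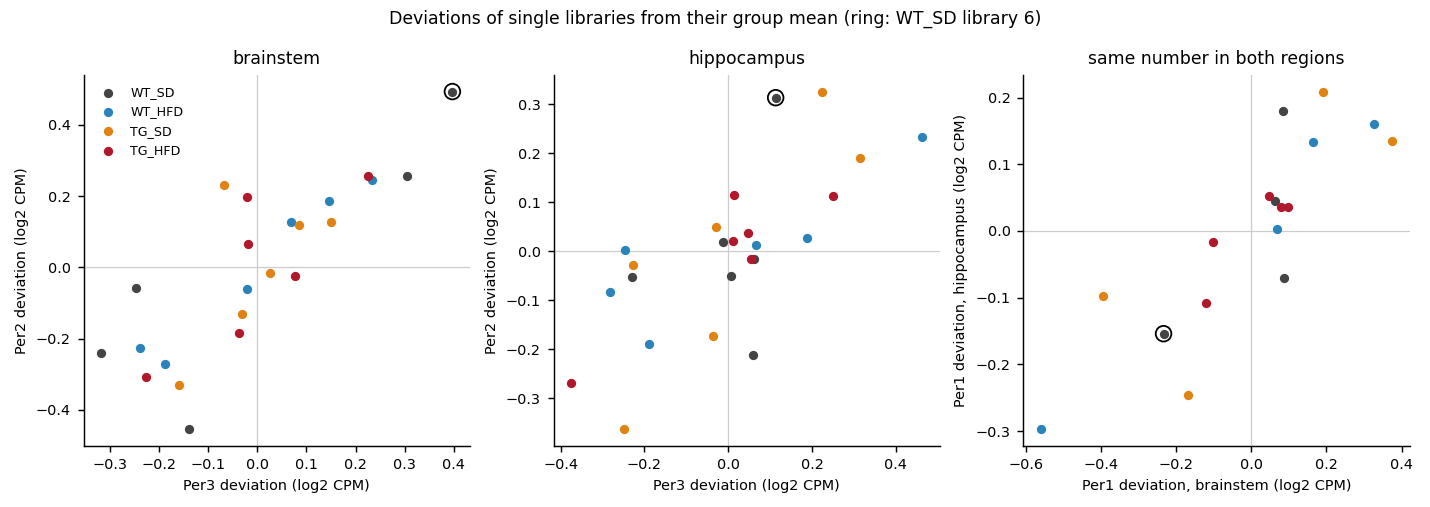
Deviations of single libraries from their group mean in log2 CPM, for Per2 against Per3 in brainstem (left) and hippocampus (middle), and for Per1 in hippocampus against brainstem over the 17 libraries that share group and number (right). Points rise together in each panel, and the ringed WT_SD library 6 is the highest for Per2 in brainstem.

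Taking Dbp, a message of large daily amplitude, as the reference instead, none of the other 9 clock genes was called in either region. Over all tested genes, 0% were called in each region by edgeR, 851 in brainstem and 2045 in hippocampus had an unadjusted p of at most 0.05, and DESeq2 called 0 and 139. The slope on Dbp was largest for Per1 in brainstem (0.89, SE 0.30, unadjusted p = 0.0073, adjusted p = 0.77) and for Ciart in hippocampus (0.87, SE 0.24, unadjusted p = 0.000999, adjusted p = 0.16). Per1 and Dbp in brainstem correlated with r = 0.55 (rho = 0.59, permutation p = 0.013, r without 2 libraries 0.59). Nr1d1 had a slope of 0.31 (SE 0.11, adjusted p = 0.20) on Dbp in hippocampus. Clock had slopes of -0.36 in brainstem and -0.26 in hippocampus, and Arntl -0.09 and -0.24, with unadjusted p-values above 0.05. By edgeR with an offset for GC content, Per2 in brainstem had a slope on Dbp of 1.28 (adjusted p = 0.0146). It was the 1 gene called of 13339 in that fit, and 0 of 13271 were called in hippocampus.

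In hippocampus, Ciart moved with Per1 (r = 0.63, rho = 0.70, permutation p = 0.00092, r without 2 libraries 0.67), with Dbp (r = 0.63, rho = 0.49, permutation p = 0.0023, r without 2 libraries 0.51) and with Per2 (r = 0.55, rho = 0.62, permutation p = 0.0081, r without 2 libraries 0.62). Arntl ran against Per2 (r = -0.51, rho = -0.43, permutation p = 0.024 for r and 0.055 for rho) and Ciart (r = -0.47, rho = -0.43, permutation p = 0.032 for r and 0.056 for rho). Without 2 libraries, r was -0.48 and -0.41. In brainstem the same pairs were weaker, at r = 0.34 for Per1 and Ciart, 0.19 for Dbp and Ciart, 0.20 for Per2 and Ciart, -0.35 for Per2 and Arntl and -0.37 for Arntl and Ciart. With the GC offset the 2 Arntl pairs were close, at -0.44 each in brainstem and -0.47 and -0.46 in hippocampus. Those of Ciart with Per1, Dbp and Per2 stayed weaker in brainstem (0.35, 0.20 and 0.26, against 0.58, 0.63 and 0.52). Whether the regions differed was not tested. The p-values of these pairs are unadjusted.

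Nr1d1 stood against several partners in brainstem. It ran opposite to Nr1d2 (r = -0.70, rho = -0.59, permutation p = 0.0012, r without 2 libraries -0.58), to Per3 (r = -0.60, rho = -0.56, permutation p = 0.0079) and to Per2 (r = -0.60, rho = -0.54, permutation p = 0.012). Without the 2 libraries farthest from the median, r with Per3 and Per2 was -0.33 and -0.36, and without WT_SD library 6 it was -0.40 with each, so both relations leaned on few libraries. Slopes on Nr1d1 in edgeR were called for 3 of 9 clock genes in brainstem (Nr1d2 -0.35, Per2 -0.61 and Per3 -0.48), where 28.6% of all genes were called, and for 0 of 9 in hippocampus, where 1.79% were. The share of clock genes called was thus near that of genes at large.

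Of the 10 genes, the REV-ERB genes moved most with GC content. The slope of each library's log2 deviations on the GC content of genes was correlated with the deviations of each of the 10 genes in each region, 20 relations in all. Nr1d1, with 56.8% GC, correlated with this GC slope at r = 0.77 in brainstem (rho = 0.68, permutation p = 0.00019, r without 2 libraries 0.71) and 0.69 in hippocampus (rho = 0.66, permutation p = 0.0005, r without 2 libraries 0.75). Nr1d2, with 41.8% GC, correlated at -0.79 (rho = -0.73, permutation p = 0.00011, r without 2 libraries -0.73) and -0.67 (rho = -0.65, permutation p = 0.0020, r without 2 libraries -0.64). Clock, with 40.9% GC, followed at -0.48 in brainstem (rho = -0.44, permutation p = 0.036) and -0.58 in hippocampus (rho = -0.63, permutation p = 0.012). Per1 in brainstem (r = 0.43, permutation p = 0.019) and Dbp in hippocampus (r = 0.46, permutation p = 0.039) also had an unadjusted p of at most 0.05, and the remaining relations did not. The median gene had an absolute r of 0.38 in brainstem and 0.32 in hippocampus. With the GC offset, r between Nr1d1 and Nr1d2 in brainstem went from -0.70 to -0.36, while r between Per2 and Per3 was 0.85 in brainstem and 0.71 in hippocampus. Among 84 relations of Dbp, Nr1d1, Per2 and Per3 with marker and response lists (p-values unadjusted), Nr1d1 moved with the mean of 4 neuron markers (Rbfox3, Snap25, Syt1 and Tubb3), with r = 0.84 in brainstem (rho = 0.68, permutation p = 0.00022, r without 2 libraries 0.65) and r = 0.55 in hippocampus (rho = 0.41, permutation p = 0.033, r without 2 libraries 0.30). Per2 ran against the same neuron markers in brainstem (r = -0.55, rho = -0.42, permutation p = 0.022, r without 2 libraries -0.32). The mean of 4 hippocampal markers, measured in brainstem, had r = 0.77 with Nr1d1 (permutation p = 0.00046) and -0.62 with Per2 (permutation p = 0.0083). The part of GC content and of neuronal RNA in the level of Nr1d1 was not tested.

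Some of the same 84 relations were with glucocorticoid-responsive, activity-induced and temperature-linked genes, again with unadjusted p-values. Per2 in hippocampus moved with the mean of 9 glucocorticoid-responsive genes, among them Fkbp5, Sgk1 and Tsc22d3 (r = 0.56, rho = 0.69, permutation p = 0.0049 for r and 0.00042 for rho, r without 2 libraries 0.64), while in brainstem r was 0.15 (rho = 0.17, permutation p = 0.48). Per3 in hippocampus moved with 6 activity-induced genes such as Junb and Egr1 (r = 0.52, rho = 0.47, permutation p = 0.021, r without 2 libraries 0.56), with r = 0.08 in brainstem. Nr1d1 did so in hippocampus as well (r = 0.55, rho = 0.41, permutation p = 0.018 for r and 0.064 for rho), with r = 0.14 in brainstem. Dbp moved with 5 activity-induced genes in brainstem (r = 0.44, rho = 0.51, permutation p = 0.044 for r and 0.020 for rho). With the glucocorticoid-responsive genes in hippocampus its relation was weaker by rank (r = 0.42, rho = 0.32, permutation p = 0.049 for r and 0.15 for rho). Nr1d1 and Dbp had r of 0.57 and 0.45 with 7 temperature-linked genes, such as Cirbp and Rbm3, in hippocampus (rho = 0.54 and 0.52, permutation p = 0.020 and 0.052). Whether the regions differed in these relations was not tested. Between the groups of genotype and diet, edgeR called 0 of the glucocorticoid-responsive, activity-induced and temperature-linked genes in any of the 10 contrasts. At an unadjusted p of at most 0.05, 0 to 2 passed per list and contrast, against 4.83% to 11.3% of all genes.

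Before any correction for GC content, WT_SD library 6 had the largest clock gene deviations of all libraries in both regions. The root mean square deviation of the 10 genes from the mean of the other libraries of the group was 0.451 on the log2 scale in brainstem, against at most 0.302 in any of the other 22 libraries, and 0.325 against at most 0.306 in hippocampus. Over all tested genes the same library ranked 2 of 23 (0.330) and 1 of 24 (0.229). With the GC offset its value for the clock genes was 0.433, still the highest in brainstem, and 0.332 in hippocampus, below TG_SD library 6 (0.343). Relative to all genes of the same library, its clock gene deviation was 1.37 in brainstem, where WT_HFD library 8 was highest (1.39). In hippocampus it was 1.42, and TG_HFD library 5 was highest there (1.60). In brainstem its deviations were -0.92 for Nr1d1, 0.62 for Per2, 0.50 for Per3, 0.45 for Cry1, -0.40 for Per1 and -0.38 for Arntl. In hippocampus they were 0.69 for Cry1, 0.38 for Per2, -0.34 for Nr1d1, 0.29 for Ciart, -0.28 for Arntl, 0.24 for Nr1d2 and -0.22 for Per1. Cry1, Per2 and Nr1d2 were thus high and Nr1d1, Arntl and Per1 low in the library of that number in each region. Its GC slope, at -0.163 in brainstem and -0.099 in hippocampus, lay below those of the other WT_SD libraries (-0.030 to 0.118 and -0.052 to 0.071), and the part of this in the deviations was not tested.

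Libraries of the same group and number in the 2 regions were compared last. The labels do not say that a number marks a mouse, and 17 numbers were shared. Per1 deviations correlated between regions with r = 0.85 (rho = 0.83, permutation p = 0.0030, adjusted p = 0.20 over 12619 genes, n = 17), with deviations on the same side of the group mean in 16 of 17, r = 0.82 without 2 libraries and r = 0.72 with the GC offset. Dbp followed with r = 0.65 (rho = 0.57, permutation p = 0.025, adjusted p = 0.32, r = 0.45 without 2 libraries). All 10 clock genes had a positive r, with a median of 0.41 against 0.20 over all genes, and the lowest was 0.18 for Ciart. Without WT_SD library 6 these medians were 0.24 and 0.139. None passed after adjustment, as for all genes (0% called, 1601 at an unadjusted p of at most 0.05 by the permutation test). For Nr1d1, Per2 and Cry1 the values rested on WT_SD library 6, since without it r went from 0.54 to 0.18, from 0.47 to 0.22 and from 0.36 to 0.11. The medians of other lists were 0.18 for the further clock genes (15 tested), 0.31 for 9 glucocorticoid-responsive genes, 0.49 for 4 activity-induced genes and 0.56 for 5 temperature-linked genes, so positive values were not particular to the clock genes.

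Without an offset for GC content, the genes whose deviations most resembled those of Dbp were not clock genes. Ranked by the lower of the correlations in the 2 regions (n = 23 and 24 libraries), the first 5 were Brf2, a subunit of the RNA polymerase III machinery (r = 0.66 in brainstem and 0.56 in hippocampus), Gipc1, a scaffold protein (0.54 and 0.64), Fam207a (0.54 and 0.56), Tmub1 (0.54 and 0.61) and Necap2, an endocytosis protein (0.53 and 0.66). Nr1d1 was the clock gene that ranked highest, at place 887 with r = 0.30 and 0.52, followed by Per1 with 0.55 and 0.25. With the GC offset, r between Per2 and Dbp went from 0.43 to 0.84 in brainstem and from 0.17 to 0.25 in hippocampus. That of Nr1d1 with Dbp became -0.37 and 0.22, and that of Per1 0.45 and 0.09. The ranking was not repeated with the offset. These correlations share library, depth and base composition and are given as a description.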

How the data were processed

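RNA was extracted from 23 brainstem and 24 hippocampus samples, and poly(A)-selected libraries made with a TruSeq kit were sequenced single-end. The authors checked reads with FastQC 0.11.9 and aligned them with STAR 2.7.9a to an Ensembl mouse genome joined with the human transgene. The deposited values are raw counts per gene and library; the counting tool is not given in the sources used here. Per the submitters' notes, normalization was done with DESeq2 1.32.0, but the deposited counts are not normalized. Symbols, exon lengths and GC content came from GENCODE M21 (GRCm38), another build than the alignment, so only promoter windows carry coordinates. Groups came from the sample labels and numbers from the library titles.

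Counts were normalized with TMM and tested with the quasi-likelihood test of edgeR 4.0.16 (R 4.3.3, prior count 2), for genes that averaged 50 or more counts per library, with Benjamini-Hochberg adjustment over all tested genes; calls needed an adjusted p of at most 0.05 and, in group and region contrasts, a log2 fold change of 0.3 or more in either direction. Group contrasts held 4 surrogate variables per region (sva 3.50.0), and the region contrast and the slopes on other genes held none. The GC offset was a loess fit with a span of 0.3. Permutation tests were two-sided, with 100000 permutations within groups. DESeq2 1.42.0, other filters, scalings and models were tried as alternatives; the anchor Per2 and the anchors with a GC offset were added after the data had been seen. The tests were checked on simulated counts. The 10 genes, the gene lists and the tests were chosen with earlier results of these data known. All 10 genes are named; further clock genes, of which 2 are not reported here, are named where called, and 5 genes for likeness to Dbp.

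Whether a title number marks a mouse is not stated. Same-numbered libraries of different groups deviated together little (median correlation over genes 0.039 for 26 pairs in brainstem and 0.066 for 36 pairs in hippocampus, lowest -0.31 and -0.15), so the numbers were not taken to pair the groups. Depth was 10020784 to 17328447 counts per library.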

Additional observations from a re-analysis of the deposited data

Results flagged for a closer look

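In 6 of the 80 combinations of gene, group and region, 1 library lay farther from its group than Dixon's 95% critical value allows, and chance alone marks about 1 group in 20. In brainstem this was Ciart in WT_HFD library 2, at 13.8 CPM against 10.7 to 11.8 in the other 5. In hippocampus, WT_SD library 6 stood apart for Nr1d2 (99.8 CPM against 80.1 to 86.3) and Cry1 (15.7 CPM against 8.56 to 10.6). Also in hippocampus were Per2 in TG_HFD library 6 (18.9 CPM against 22.6 to 24.7), Nr1d2 in WT_HFD library 3 (67.1 CPM against 82.3 to 89.4) and Cry1 in TG_SD library 4 (11.9 CPM against 8.49 to 9.74). In brainstem WT_SD, library 6 was far from the others for Nr1d1 (25.4 CPM against 43.1 to 51.5) without passing that value.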

How the results depend on the processing

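Of 132 counts of clock genes called under alternatives, 123 stayed within 1.5 times the reported count, as did all 346 with 1 library left out, which gave 0 for every group contrast, 6 or 7 between regions and 0 for the slopes on Dbp. The others concern slopes on a reference gene in brainstem, where 0 were called with Dbp. The count was 3 with Nr1d1 as the reference, 1 with Per3, 1 with Per2, 1 with Dbp and a GC offset, 1 with Dbp and no group terms, and, with a GC offset, 2 with Nr1d1, 1 with Per3 and 2 with Per2. Over all 13339 genes these fits called, in the same order, 3815, 1, 5, 1 and 493, and 1734, 1 and 74 genes. In hippocampus the count of clock genes was 1 with Per3 and a GC offset, where 209 of 13271 genes were called. The cause was not tested. Of 1188 values of single genes under alternatives, 1181 stayed on the same side of the call, 2 lost the call and 5 gained it, and 0 called values reversed. Of the 1181, 206 changed sign, none of them called in either fit, mostly where the surrogate variables were left out or reduced. Ciart between regions fell under the fold threshold with edgeR's filterByExpr (-0.29) and lost significance in WT_SD alone (-0.22, adjusted p = 0.13), where fewer samples enter. With the replicate block, fitted without surrogate variables, 0 clock genes were called in each of the 10 group contrasts and 0 for the slopes on Dbp, and 7 between regions over 34 libraries, Cry1 included. Same-numbered libraries of the 2 regions correlated at a median of 0.16 over all other genes (-0.09 to 0.56) and best with their own number in 10 of 17, a hint from the data and not the design. Counts over all genes moved by more than 1.5 times in several contrasts: 19 became 3 to 33 and 7 became 4 to 87 in brainstem TG_SD/WT_SD and TG_HFD/WT_HFD, 1 became 0 to 10 in TG_HFD/TG_SD and 0 to 1 for the interaction. In hippocampus 13 became 6 to 21, 30 became 25 to 634, and 0 became at most 30, 3 and 3. Slopes on Dbp went from 0 to at most 493 and 190, and correlations between regions from 0 to at most 6 (without WT_HFD library 8). At these depths, counting error alone gave Ciart in hippocampus an SD of 0.13 on the log2 scale, which limits what can be seen for it.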
